A study of Mus musculus with 12 samples.

Results

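The Schlafen genes are a family of growth and antiviral regulators that lie side by side on mouse chromosome 11. The 7 members described here are Slfn1, Slfn2, Slfn3, Slfn4, Slfn5, Slfn8 and Slfn9, among 31060 genes in the deposited count table. The family was selected on the measured level of Slfn4, which was high in the libraries labelled Tet2+/-;Ins2Akita/+, and the other members came with it. For that reason every difference that involves those libraries is a description without a test. All 7 of 7 passed the filter on low counts, among the 15630 genes tested.

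RNA was sequenced from lineage-negative bone marrow, the fraction left after cells with surface markers of mature blood lineages are removed, of C57BL/6 mice. Libraries labelled Tet2+/-;Ins2Akita/+, called the double mutant here, carry 1 disrupted copy of Tet2 together with the Akita allele of Ins2, an insulin gene (n = 3). The other groups were Tet2+/- (n = 3), Ins2Akita/+ (n = 2) and wild type (WT, n = 3). Tet2 encodes an enzyme that oxidizes methylated cytosine and is often mutated in clonal blood disorders, and the Akita allele encodes a misfolding insulin that gives mice high blood glucose; the study's title asks about the joint effect of both in myeloid disease. The sources used here give neither age, sex nor the kind of Tet2 allele, and do not say whether animals were pooled, so the spread between libraries of a group may be technical.

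Schlafen proteins were named after the German word for sleep, because the first members held developing T cells out of division. Short members such as Slfn1 and Slfn2 hold the shared core domain, Slfn3 and Slfn4 are of intermediate length, and Slfn5, Slfn8 and Slfn9 carry a further helicase-like domain. Many are induced by type I interferons, and in myeloid cells Slfn4 is known as a gene that interferon and Toll-like receptor signals induce.

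Library totals ran from 14814409 to 22600405 counts. Libraries numbered 3 stood apart: mitochondrial genes held 9.76% of counts in the double mutant, 4.46% in Tet2+/- and 3.43% in WT, against 1.36% to 1.94% in the 8 other libraries. Tet2 itself was at 66.5, 108 and 34.2 CPM (counts scaled to a common library size with TMM factors) in the double mutant and at 19.0, 18.5 and 19.3 CPM in Tet2+/-. It was at 131 and 107 CPM in Ins2Akita/+ and at 91.2, 128 and 45.1 CPM in WT. The double mutant value was below the WT value of the same library number in each of 3 pairs, and its mean of 69.5 CPM was below the 119 CPM of Ins2Akita/+, although its range overlapped both groups. It lay above every Tet2+/- library, which carries the same Tet2 label. The stem and progenitor genes Kit and Cd34 were present (averages of 114.6 and 123.8 CPM over the 11 libraries), and so were genes of mature cells. The 18 maturing neutrophil genes summed to 49879 to 75699 CPM in the double mutant, 3180 to 30819 CPM in Tet2+/-, 17036 to 32597 CPM in Ins2Akita/+ and 2309 to 24928 CPM in WT.

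The cluster runs over chromosome 11 (GRCm38, GENCODE M21) in the order Slfn5 (82951349 to 82964840, plus strand), Slfn9 (82978390 to 82991830, minus), Slfn8 (83002158 to 83020810, minus), Slfn2 (83065112 to 83070678, plus), Slfn1 (83116849 to 83122670, plus), Slfn4 (83175186 to 83190216, plus) and Slfn3 (83191330 to 83215154, plus). Coding sequences were 1011 bases for Slfn1, 1134 for Slfn2, 1806 for Slfn4, 1920 for Slfn3, 2652 for Slfn5 and 2730 each for Slfn8 and Slfn9. Slfn3 and Slfn4 were identical at 92.7% of the bases of the shorter coding sequence, and Slfn8 and Slfn9 also at 92.7%. Of the 50-base stretches in exons, 0.606% of Slfn1, 4.27% of Slfn2, 11.3% of Slfn4, 16.0% of Slfn3, 11.1% of Slfn5, 14.6% of Slfn8 and 11.9% of Slfn9 also occurred in another gene. Counts of Slfn3 and of Slfn8 and Slfn9 are therefore uncertain where reads could be placed on a near-identical copy. An antisense gene overlaps Slfn2, and another overlaps Slfn5. The sources used here do not say whether the counting used strand, so reads of the antisense partner cannot be told apart.

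Promoters are shown because Slfn2, Slfn1, Slfn4 and Slfn3 lie next to each other, so that their starts can be compared letter by letter. Slfn3 is among them although it was not raised in the double mutant, at a log2 difference of -0.02 (SE 0.56) over WT. RefSeq promoter entries (GRCm38.p6) matched 7 of 7 members. The 120 bases before the RefSeq start were read 5′ to 3′ on each gene's own strand, and the stretch ACTTCCTGG is in capitals where it occurs. It is the longest stretch, of 9 bases, that these 120 bases of the 4 neighbouring promoters have in common. It was singled out after the sequences were seen, and it was searched on both strands in all 32851 promoters. The windows are chr11:83175066-83175185 for Slfn4, chr11:83116700-83116819 for Slfn1, chr11:83064992-83065111 for Slfn2 and chr11:83191210-83191329 for Slfn3, all on the plus strand.
Slfn4: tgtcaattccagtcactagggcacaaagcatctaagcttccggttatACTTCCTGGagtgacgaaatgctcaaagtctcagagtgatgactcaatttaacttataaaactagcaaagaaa
Slfn1: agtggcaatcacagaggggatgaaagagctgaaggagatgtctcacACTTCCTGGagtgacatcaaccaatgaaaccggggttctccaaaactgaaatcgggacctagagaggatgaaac
Slfn2: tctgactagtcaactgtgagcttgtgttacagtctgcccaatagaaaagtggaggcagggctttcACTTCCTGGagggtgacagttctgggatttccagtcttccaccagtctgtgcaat
Slfn3: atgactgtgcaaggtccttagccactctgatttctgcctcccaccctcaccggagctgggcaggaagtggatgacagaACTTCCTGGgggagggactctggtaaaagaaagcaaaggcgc
ACTTCCTGG began 73 bases before the start of Slfn4, 74 before that of Slfn1, 55 before that of Slfn2 and 42 before that of Slfn3. These 4 genes are neighbours on the plus strand. Of all promoters, 0.387% held it in the same 120 bases and 0.843% in the window from 250 bases before to 50 after the start. The RefSeq start of Slfn1 lies before its GENCODE start. Slfn5, Slfn8 and Slfn9 did not hold these letters in the window.

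The promoters of Slfn8 and Slfn9 are shown for a second motif, GAAA followed by any 2 bases and again GAAA, the core of the interferon-stimulated response element to which the factors downstream of the interferon receptor bind. Both genes are on the minus strand, at chr11:83020811-83020930 for the upstream of the 2 RefSeq starts of Slfn8 and at chr11:82991831-82991950 for Slfn9. Capitals mark the match, which lies on the strand opposite to the gene and so reads as TTTCGTTTTC.
Slfn8: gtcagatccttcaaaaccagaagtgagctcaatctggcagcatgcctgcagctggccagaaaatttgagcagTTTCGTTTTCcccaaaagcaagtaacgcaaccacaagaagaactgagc
Slfn9: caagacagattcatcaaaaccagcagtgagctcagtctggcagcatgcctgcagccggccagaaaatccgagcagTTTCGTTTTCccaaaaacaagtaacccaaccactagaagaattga
The match began 48 bases before the start of Slfn8 and 45 before that of Slfn9, and the 2 promoters were identical at 80.8% of aligned positions. Slfn5 held GAAAAAGAAA 155 bases before its start. Slfn1, Slfn2, Slfn3 and Slfn4 had no match in the 300 bases searched on both strands. Of all promoters, 1.22% held this second motif in the last 120 bases and 3.44% in the whole window. No member held both motifs in its window, and a match describes the sequence alone.

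Slfn4, the myeloid member, had the widest range of the 7 genes, 24.2-fold between its lowest and highest library. Its level was 348, 723 and 488 CPM in the double mutant, 53.7, 39.6 and 37.1 CPM in Tet2+/-, 182 and 82.3 CPM in Ins2Akita/+, and 104, 132 and 29.9 CPM in WT. Every double mutant library lay above the 8 others, and Tet2+/- and Ins2Akita/+ each overlapped WT. Both Ins2Akita/+ libraries lay above all Tet2+/- libraries, and the share of all genes that did so was not counted. Means were 519.7 ± 190 CPM in the double mutant, 43.4 ± 8.92 CPM in Tet2+/-, 132 ± 70.2 CPM in Ins2Akita/+ (SD, n = 2) and 88.5 ± 52.6 CPM in WT (SD, n = 3 for the others). The fitted log2 difference was 2.55 (SE 0.54) for the double mutant over WT, 3.58 (SE 0.57) over Tet2+/- and 1.98 (SE 0.62) over Ins2Akita/+. These comparisons share the double mutant libraries. Between libraries of the same number, double mutant minus WT was 1.74, 2.46 and 4.02 on the log2 scale, with the widest gap in the number 3 libraries, where WT was lowest. Without the libraries numbered 3 the difference from WT was 2.18 (SE 0.46).

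Slfn1, a short member that blocks the growth of thymocytes when overexpressed, ran alongside Slfn4 at a lower level. It was at 36.8, 83.3 and 55.1 CPM in the double mutant, 15.7, 14.5 and 7.20 CPM in Tet2+/-, 30.2 and 16.5 CPM in Ins2Akita/+, and 24.6, 22.6 and 7.26 CPM in WT. As with Slfn4, the 3 double mutant libraries were above all 8 others, and the number 2 library was the highest. The log2 difference was 1.69 (SE 0.51) for the double mutant over WT, 2.23 (SE 0.52) over Tet2+/- and 1.33 (SE 0.58) over Ins2Akita/+. Double mutant minus WT within library numbers was 0.58, 1.88 and 2.91. Across the 11 libraries the log2 CPM of Slfn1 and Slfn4 correlated at r = 0.97, and across the 8 libraries left without number 3 also at r = 0.97. Those points share genotypes and library numbers.

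Slfn2, a short member whose loss costs mouse T cells and monocytes their quiescence, was the most abundant of the family per length. Its level was 346, 387 and 126 CPM in the double mutant, 171, 129 and 24.5 CPM in Tet2+/-, 207 and 138 CPM in Ins2Akita/+, and 182, 197 and 24.8 CPM in WT. In each of the 3 genotypes that have a number 3 library, that library was the lowest, by 1.54 in the double mutant, 2.60 in Tet2+/- and 2.93 in WT on the log2 scale below the mean of numbers 1 and 2. The double mutant therefore overlapped every other group. Its log2 difference was 1.09 (SE 0.81) over WT, 1.40 (SE 0.82) over Tet2+/- and 0.73 (SE 0.92) over Ins2Akita/+. Leaving out WT replicate 3 brought the difference from WT to 0.60. Leaving out all libraries numbered 3 gave 0.95 with a smaller SE of 0.21. With the replicate number as a block it was 1.43 (SE 0.29). Within numbers, double mutant minus WT was 0.92, 0.98 and 2.34, positive each time.

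**Figure D1:**
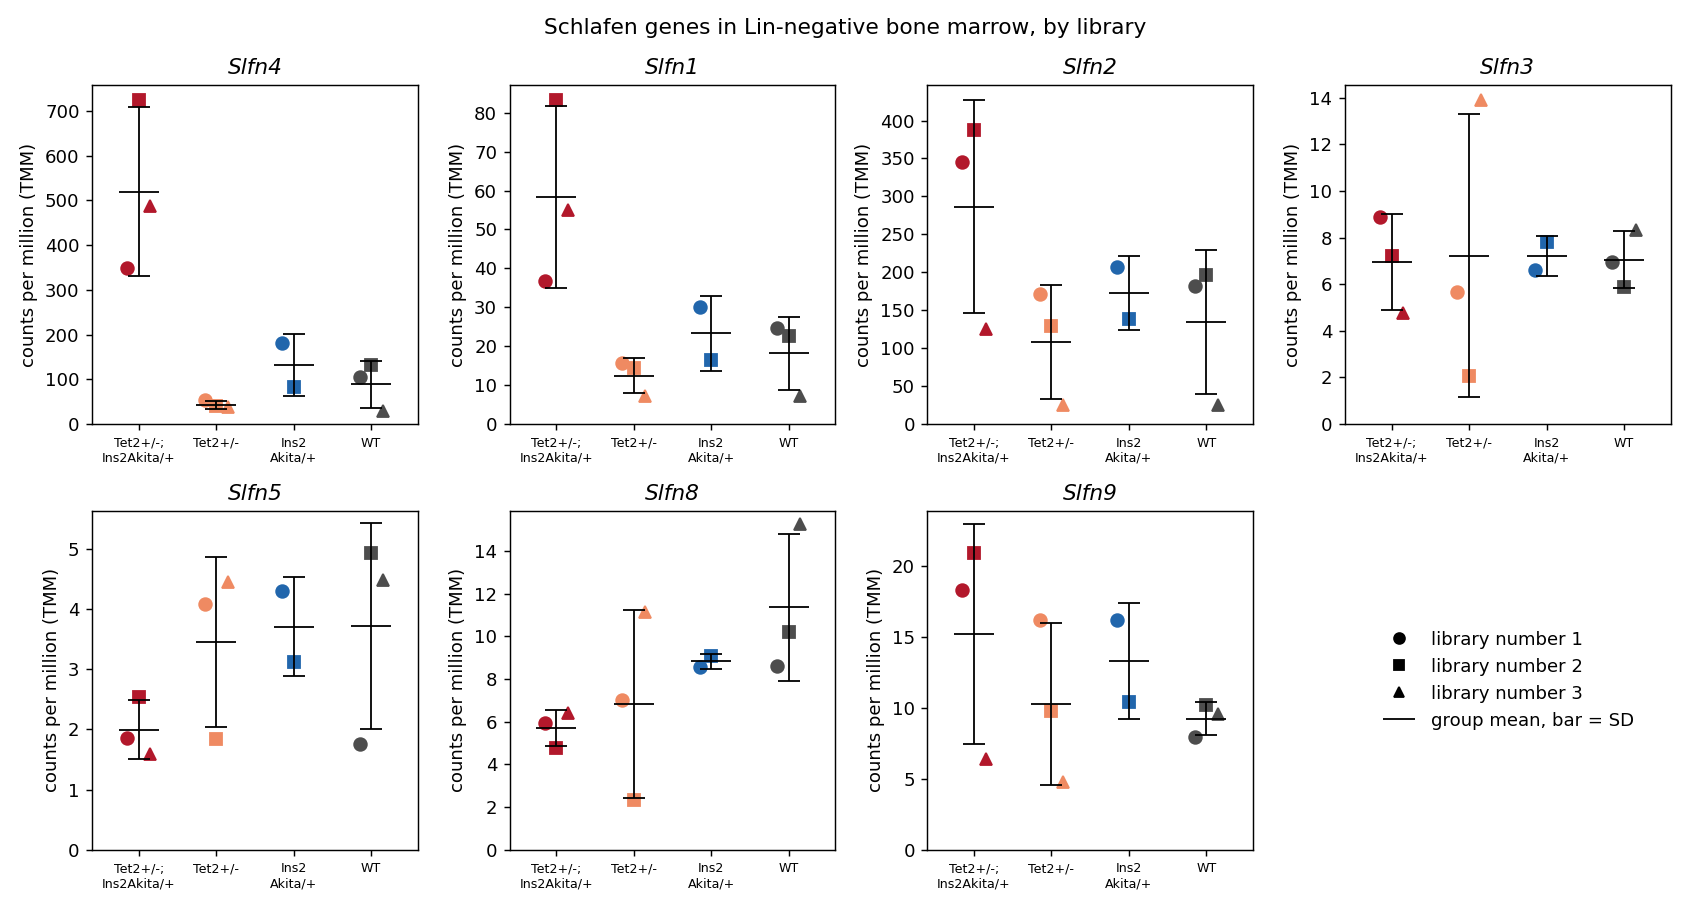
Levels of the 7 Schlafen genes in TMM-scaled CPM (vertical axis, linear, from 0) in double mutant, Tet2+/-, Ins2Akita/+ and WT libraries (horizontal axis); each point is 1 library with its shape giving the library number, and lines with bars are the group mean and SD. Slfn4 and Slfn1 are above all other libraries in the 3 double mutant ones, whereas number 3 libraries (triangles) are low for Slfn2 within their groups.

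Slfn3, linked to intestinal cell differentiation in rodents, is the closest relative of Slfn4 and its next neighbour, lying just past its end. Its level was 8.87, 7.21 and 4.75 CPM in the double mutant, 5.69, 2.08 and 13.9 CPM in Tet2+/-, 6.59 and 7.83 CPM in Ins2Akita/+, and 6.95, 5.88 and 8.35 CPM in WT. All groups overlapped, and both the lowest and the highest library were Tet2+/- ones. The log2 difference of the double mutant was -0.02 (SE 0.56) over WT, -0.06 (SE 0.56) over Tet2+/- and -0.05 (SE 0.62) over Ins2Akita/+. Across the 11 libraries Slfn3 and Slfn4 correlated at r = 0.02, and at r = 0.62 across the 8 without number 3. Gm11427, a neighbouring pseudogene that shares 50-base stretches with both, averaged 6.08 ± 2.38 CPM in the double mutant, 9.30 ± 7.84 CPM in Tet2+/-, 6.94 ± 3.49 CPM in Ins2Akita/+ and 8.95 ± 5.76 CPM in WT.

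The long members were at low levels. Slfn5, whose human counterpart restricts herpesvirus transcription, was at 1.85, 2.54 and 1.58 CPM in the double mutant, 4.08, 1.84 and 4.44 CPM in Tet2+/-, 4.29 and 3.12 CPM in Ins2Akita/+, and 1.76, 4.93 and 4.48 CPM in WT. These values rest on 25 to 99 counts, and the double mutant overlapped WT and Tet2+/- while lying below both Ins2Akita/+ libraries. Its log2 difference was -0.90 (SE 0.47) over WT, -0.79 (SE 0.47) over Tet2+/- and -0.89 (SE 0.52) over Ins2Akita/+.

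Slfn8, a long member with a helicase-like domain, was at 5.96, 4.77 and 6.40 CPM in the double mutant, 7.01, 2.31 and 11.2 CPM in Tet2+/-, 8.59 and 9.08 CPM in Ins2Akita/+, and 8.61, 10.2 and 15.2 CPM in WT. All 3 double mutant libraries were below every WT and every Ins2Akita/+ library. The log2 difference was -0.99 (SE 0.48) over WT, -0.26 (SE 0.48) over Tet2+/- and -0.63 (SE 0.53) over Ins2Akita/+. Slfn9, its near copy, was not lower there, at 18.3, 20.9 and 6.40 CPM in the double mutant, 16.2, 9.79 and 4.78 CPM in Tet2+/-, 16.2 and 10.4 CPM in Ins2Akita/+, and 7.96, 10.2 and 9.56 CPM in WT. Number 3 libraries were lowest in the double mutant and Tet2+/- but not in WT, so the groups overlapped, and the difference from WT was 0.72 (SE 0.51), or 1.11 (SE 0.30) without those libraries. The log2 CPM of Slfn8 and Slfn9 correlated at r = -0.29 over the 11 libraries.

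**Figure D2:**
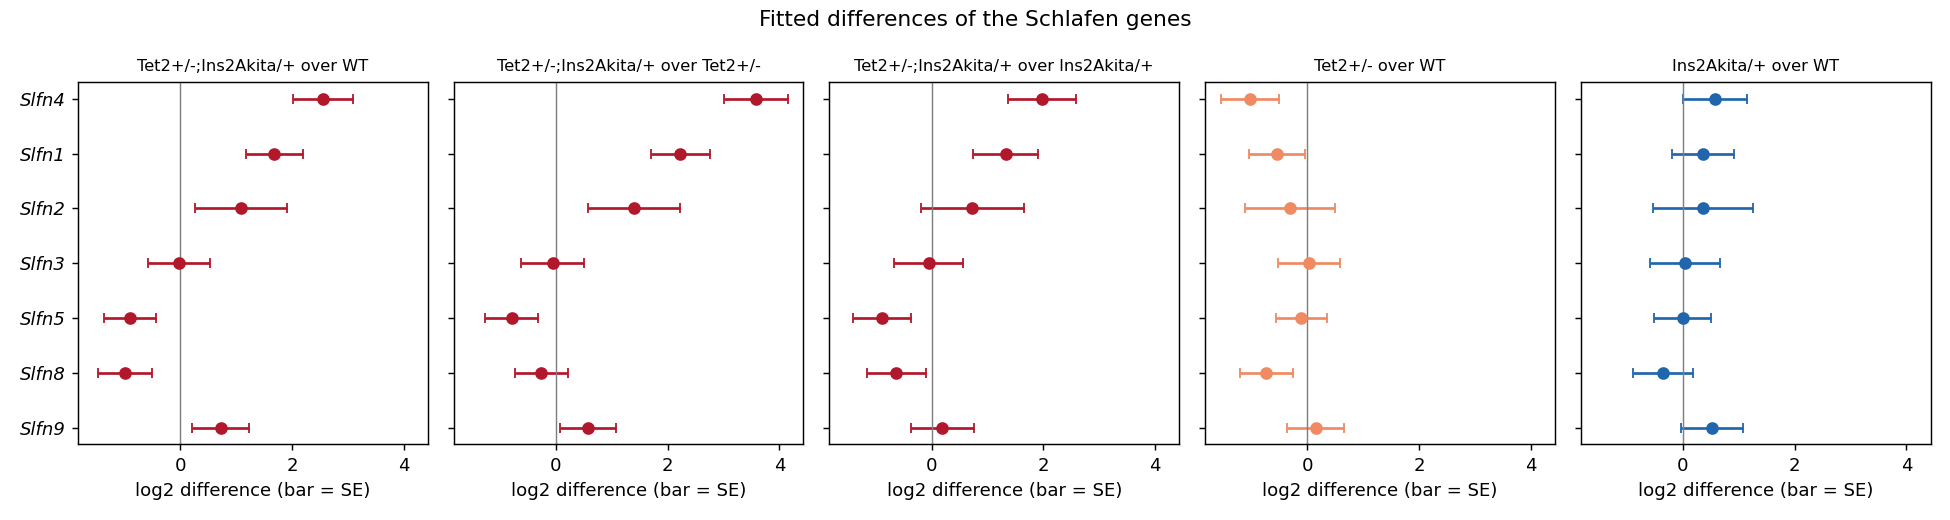
Fitted log2 difference (horizontal axis) of each Schlafen gene (rows, in the order of the text) in 5 comparisons; points are edgeR estimates and bars are 1 SE either side. Slfn4 is farthest right in the 3 double mutant panels, at 2.55, 3.58 and 1.98, and Slfn5 and Slfn8 lie left of 0 there.

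The call rule was an adjusted p under 0.05 in edgeR's quasi-likelihood test with Benjamini-Hochberg adjustment over all 15630 genes. For the double mutant over WT it called 0 of 7 members, where 0.0448% of all genes were called. At an unadjusted p under 0.05 there were 2 members, and 8.79% of all genes. DESeq2 called 1 (Slfn4) among 408 genes, and limma voom 0 members among 13 genes. With the replicate number as a block, 1 member was called, Slfn4, and 255 genes in all. Over Tet2+/-, 1 of 7 was called, Slfn4, where 0.262% of genes were (2 members and 10.9% of genes at the unadjusted p). Each fit that left out 1 double mutant, Tet2+/- or WT library called 0 members, except the fit without WT replicate 3, which called Slfn4. These fits called 0 to 66 genes in all, and 49 without WT replicate 3. For the same comparison the block called 3 members (Slfn1, Slfn2 and Slfn4) and 703 genes in all. The fit without libraries numbered 3 called the same 3 members and 1163 genes in all. Over Ins2Akita/+ edgeR called 0 of 7, where 0.0384% of genes were called (2 members and 6.6% of genes at the unadjusted p). DESeq2 called 0 members among 189 genes there, and limma voom 0 members among 3 genes. Without the libraries numbered 3 edgeR called 1 member, Slfn2, at a log2 difference of 1.09, and 436 genes in all. Because the double mutant levels chose the family, these counts are given only as a description.

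In the same contrasts, 2 of 7 members (Slfn4 and Slfn1) were higher in every double mutant library than in every WT library, as were 9.55% of all genes, and 1 (Slfn8) was lower in every one, as were 8.57% of genes. Against Tet2+/- libraries 2 were higher in every one, as were 8.48% of genes, and 0 lower, as were 6.68% of genes. Against Ins2Akita/+ libraries 2 were higher and 2 lower (Slfn5 and Slfn8) in every one, as were 16.6% and 19.9% of genes.

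Tet2+/- against WT compares libraries that did not choose the family, and it was tested. No member was called: 0 of 7, where 0.0256% of all genes were called, with 0 of 7 at an unadjusted p under 0.05 (2.12% of genes). DESeq2 called 0 of 7 members among 45 genes, and limma voom 0 of 7 among 4 genes. Slfn4 averaged 43.4 ± 8.92 CPM in Tet2+/- and 88.5 ± 52.6 CPM in WT, a log2 difference of -1.03 (SE 0.52, edgeR adjusted p = 1). Its differences within library numbers were -0.96, -1.73 and 0.31, so the number 3 pair had the opposite sign. Without those libraries the estimate was -1.34 (SE 0.45). Slfn8 differed by -0.73 (SE 0.48) and Slfn1 by -0.54 (SE 0.50). Slfn2 at -0.31 (SE 0.81), Slfn5 at -0.10 (SE 0.46), Slfn3 at 0.04 (SE 0.56) and Slfn9 at 0.15 (SE 0.51) were within 1 SE of 0. Single libraries set several of these values. Without Tet2+/- replicate 3 Slfn2 was at 0.16, Slfn3 at -0.86 and Slfn8 at -1.28. Without Tet2+/- replicate 1 Slfn2 was at -0.80 and Slfn9 at -0.34. Without all libraries numbered 3 Slfn9 was at 0.52 (SE 0.30). All 7 genes overlapped between the 2 groups, where 2.07% of genes were higher and 2.18% lower in every Tet2+/- library.

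Ins2Akita/+ against WT also called 0 of 7 members, where 0% of all genes were called. At an unadjusted p under 0.05 there were 0 of 7 and 0.429% of genes, and DESeq2 and limma voom each called 0 members and 0 genes in all. The estimates were 0.58 (SE 0.57) for Slfn4, 0.53 (SE 0.56) for Slfn9, 0.36 (SE 0.56) for Slfn1, 0.36 (SE 0.89) for Slfn2, 0.03 (SE 0.62) for Slfn3, -0.01 (SE 0.52) for Slfn5 and -0.36 (SE 0.54) for Slfn8, with edgeR adjusted p = 1 for each. Single libraries decided these values too. Without the first Ins2Akita/+ library the difference was -0.13 for Slfn4, -0.16 for Slfn1 and 0.16 for Slfn9, and without WT replicate 3 it was -0.14 for Slfn2. With the replicate block Slfn9 was at 0.11. Slfn9 was higher in both Ins2Akita/+ libraries (16.2 and 10.4 CPM) than in the 3 WT libraries, as were 4.78% of genes, and 0 members were lower in both, as were 6.86% of genes. With SEs of this size neither comparison shows that the genotypes have the same level.

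Per kilobase of exon, levels can be set side by side between genes. The mean level over the 11 libraries was 105.6 CPM per kb for Slfn2, 50.9 for Slfn4, 15.3 for Slfn1, 2.08 for Slfn3, 1.99 for Slfn9, 1.99 for Slfn8 and 0.502 for Slfn5. Slfn3, Slfn9 and Slfn8 differed from each other by less than their SDs between libraries, which were 0.861, 0.874 and 0.845 CPM per kb. Slfn4 made up 27.2%, 39.1% and 52.9% of the summed per-kb level of the family in the double mutant, 10.3%, 10.2% and 25.8% in Tet2+/-, 23.6% and 17.4% in Ins2Akita/+, and 17.0%, 19.5% and 21.6% in WT. Every double mutant library had a larger share than every other library, the nearest being number 3 of Tet2+/-. Slfn2 took 64.4%, 49.8% and 32.5% in the double mutant, 78.2%, 78.8% and 40.6% in Tet2+/-, 64.2% and 69.5% in Ins2Akita/+, and 70.8%, 69.4% and 42.8% in WT, lowest in the number 3 library of each group.

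**Figure D3:**
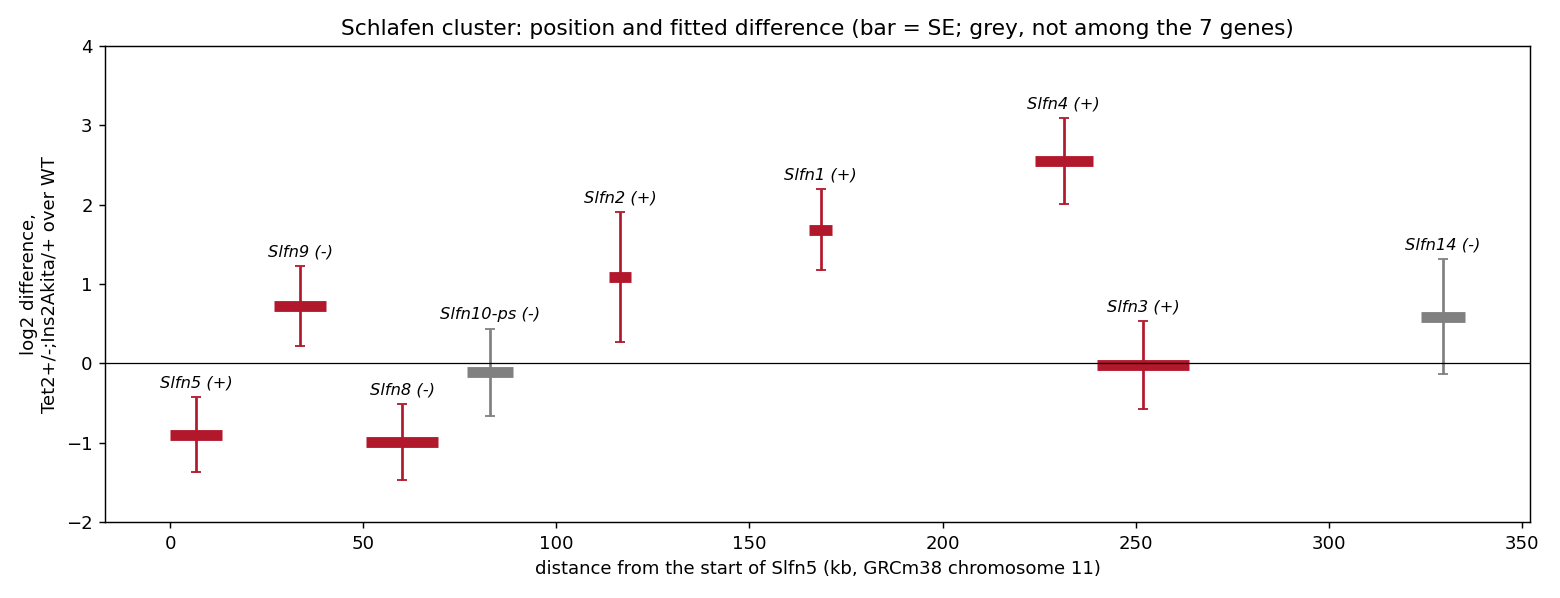
Position in the Schlafen cluster as distance from the start of Slfn5 in kb (horizontal axis; thick bars span each gene, strand in brackets) against the fitted log2 difference of the double mutant over WT (vertical axis; thin bars are 1 SE). The 3 neighbours Slfn2, Slfn1 and Slfn4 lie at 1.09, 1.69 and 2.55, and Slfn3, next to Slfn4, lies at -0.02.

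Another 4 symbols begin with Slfn. The pseudogene Slfn10-ps was at 1.07 to 5.26 CPM over the 11 libraries and Slfn14, a ribosome-associated endoribonuclease, at 0.242 to 1.60 CPM from 4 to 32 counts. Slfn5os had 1 count in a single library, and Slfnl1, which lies on chromosome 4, had 0 to 2 counts.

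The genes whose log2 CPM followed that of Slfn4 most closely over the 11 libraries, among 11939 candidates with a mean of at least 1 CPM, were Mmp25 (r = 0.99), Anxa7 (0.98), Il1f9 (0.97), Acvrl1 (0.97) and Pnpla1 (0.96). Mmp25, a membrane-anchored matrix protease of leukocytes, averaged 118 CPM in the double mutant, 8.81 CPM in Tet2+/-, 30.4 CPM in Ins2Akita/+ and 20.1 CPM in WT. Slfn1 was closest to Il1f9 (r = 0.99), an interleukin-36 cytokine gene, then to Acvrl1 (0.98) and Fbxl5 (0.97), so Il1f9 and Acvrl1 stand near both. Il1f9 averaged 112 CPM in the double mutant, 15.2 CPM in Tet2+/-, 35.1 CPM in Ins2Akita/+ and 27.2 CPM in WT. Slfn2 was closest to Csf2ra (r = 0.996), the receptor chain for granulocyte-macrophage colony-stimulating factor, Tbc1d2 (0.994) and Fam217b (0.993). The nearest to Slfn3 were Ralgapb (0.97), Brpf3 (0.96) and Med24 (0.96), to Slfn8 Rabgap1 (0.97), Fam120c (0.95) and Zmym4 (0.95), to Slfn9 Nagpa (0.92), R3hdm2 (0.92) and Ppp1r21 (0.91), and to Slfn5 Wdr3 (0.90), Dlg1 (0.89) and Ascc3 (0.88). The points share libraries and genotypes. The choice of genes depended on the measure: by Spearman's rho, 2 of the 5 for Slfn4, 1 of 3 for Slfn1 and for Slfn5, and 0 of 3 for Slfn3, Slfn8 and Slfn9 stayed among the closest. For Slfn2, Csf2ra had the highest possible rho of 1, tied with other genes, and Tbc1d2 and Fam217b ranked 58 and 100. Without libraries numbered 3, those that stayed were 2 of 5 for Slfn4, 1 of 3 for Slfn1, Slfn2 and Slfn5, and 0 of 3 for Slfn3, Slfn8 and Slfn9. Pnpla1 then ranked 228 for Slfn4 and Ppp1r21 592 for Slfn9.

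Maturing neutrophil genes were also higher in the double mutant than in WT. All 18 lay above 0 for the double mutant over WT, with a median log2 difference of 2.07 where the median of all genes was -0.05; edgeR called 0 of 18, 12 were under an unadjusted 0.05 and DESeq2 called 7. For Tet2+/- over WT, 15 of the 18 lay above 0, as did 55.2% of all genes, with a median of 0.28. In edgeR 0 of 18 were under an unadjusted 0.05 for this comparison, and the median ran from -0.17 to 0.72 over the other settings. Slfn4, Slfn1 and Slfn2 were at -1.03, -0.54 and -0.31 there. S100a9 averaged 17142 ± 4764 CPM in the double mutant, 5741 ± 4217 CPM in Tet2+/-, 6177 ± 2809 CPM in Ins2Akita/+ and 4297 ± 3249 CPM in WT (SD). S100a8, Ngp and Ltf, also granule or cytosolic proteins of neutrophils, differed by 2.03, 1.66 and 1.99 over WT on the log2 scale. In bulk RNA fewer cells of a type and less RNA per cell cannot be told apart, and the part of these genes in the Schlafen levels was not tested.

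Set against that list, Slfn4 had 6.97, 9.55 and 7.39 CPM per 1000 CPM of maturing neutrophil genes in the double mutant, 1.87, 1.28 and 11.7 in Tet2+/-, 5.57 and 4.83 in Ins2Akita/+, and 4.37, 5.28 and 12.9 in WT. On this scale the double mutant no longer stood above all others, because the number 3 libraries of Tet2+/- and WT, which held few neutrophil transcripts, had the highest ratios. Among libraries numbered 1 and 2 the double mutant had the highest ratios and Tet2+/- the lowest. Slfn1 had 0.739, 1.10 and 0.834 in the double mutant, 0.548, 0.470 and 2.26 in Tet2+/-, 0.926 and 0.967 in Ins2Akita/+, and 1.03, 0.905 and 3.14 in WT, so its double mutant ratios lay among those of the other genotypes. For Slfn2 the ratio was 6.93, 5.12 and 1.90 in the double mutant, 5.97, 4.18 and 7.70 in Tet2+/-, 6.36 and 8.10 in Ins2Akita/+, and 7.66, 7.89 and 10.7 in WT, lowest in the number 3 double mutant library.

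**Figure D4:**
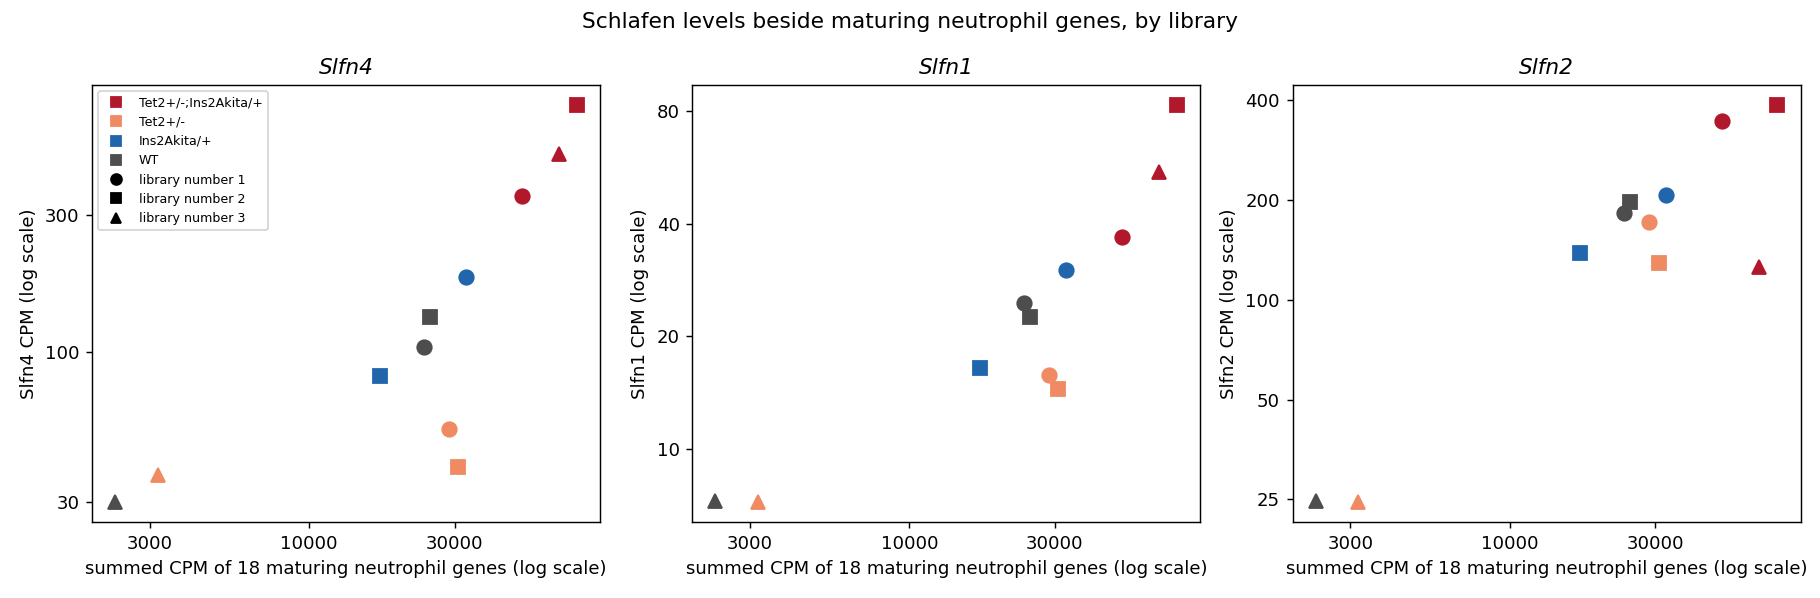
Level of Slfn4, Slfn1 and Slfn2 in CPM (vertical axis, log scale) against the summed CPM of 18 maturing neutrophil genes (horizontal axis, log scale); each point is 1 library, coloured by genotype with its shape giving the library number. Double mutant libraries lie at the right, from 49879 to 75699 CPM, and Tet2+/- libraries 1 and 2 lie below other libraries of similar neutrophil level for Slfn4, at 53.7 and 39.6 CPM.

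Monocyte and macrophage genes moved less: 9 of 14 lay above 0 for the double mutant over WT, median 0.25, and their summed level was 3431 to 6052 CPM in the double mutant, 537 to 4463 CPM in Tet2+/-, 2401 to 4019 CPM in Ins2Akita/+ and 698 to 3297 CPM in WT. Per 1000 CPM of these genes Slfn4 had 73.3, 119 and 142 CPM in the double mutant, 12.2, 8.87 and 69.1 CPM in Tet2+/-, 45.2 and 34.3 CPM in Ins2Akita/+, and 34.2, 39.9 and 42.8 CPM in WT, with every double mutant library the highest. Lymphoid genes were lower: 14 of 17 T and NK cell genes lay below 0 (median -1.12), as did 13 of 13 B lineage genes (median -2.35). The part of these cell types was likewise not tested.

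Of the interferon pathway that is known to induce Schlafen genes, 21 of 22 signalling genes were tested (ligands, receptors, kinases, transcription factors and inhibitors). The ligand Ifnl3, with 0 to 2 counts per library, was not. For the double mutant over WT, 6 lay above 0, the median was -0.19, edgeR called 0, 4 were under an unadjusted 0.05, and DESeq2 called 2 lower. The kinases Jak1 and Jak2 differed by -0.14 (SE 0.35) and -0.48 (SE 0.22), the receptor chain Ifngr1 by -0.55 (SE 0.50) and the transcription factor Irf1 by -0.58 (SE 0.43). The ligand Ifnb1, named after its values were seen, averaged 5.85 ± 3.40 CPM in the double mutant, 4.13 ± 6.01 CPM in Tet2+/-, 0.627 ± 0.140 CPM in Ins2Akita/+ and 0.648 ± 0.649 CPM in WT, with SDs near or above the means in Tet2+/- and WT. Among 42 interferon-stimulated genes, 22 lay above 0, the median was 0.15, edgeR called 0, 5 were under an unadjusted 0.05, and DESeq2 called 1 higher and 1 lower. Their summed level was 1304 to 1608 CPM in the double mutant, 1096 to 1276 CPM in Tet2+/-, 1035 to 1143 CPM in Ins2Akita/+ and 952 to 1195 CPM in WT. The most abundant were the chemokine Cxcl10 at 1.25 (SE 0.58), the antiviral membrane protein Ifitm3 at 1.80 (SE 0.52) and the virus tether Bst2 at -0.89 (SE 0.33). Members of the list thus lay on both sides of 0, where 44.1% of all genes lay above 0. Of the 7 Schlafen genes, chosen on the level of Slfn4 in the double mutant, 4 lay above 0 with a median of 0.72. The part of interferon signals in the Schlafen levels was not tested.

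**Figure D5:**
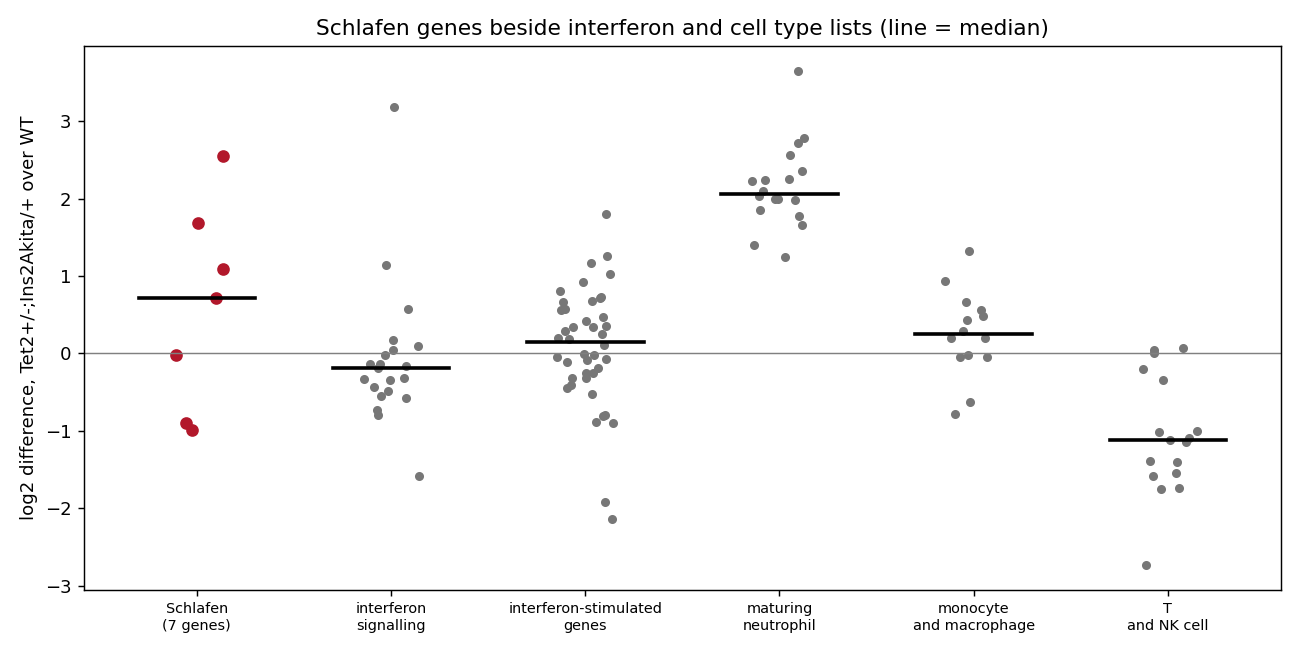
Fitted log2 difference of the double mutant over WT (vertical axis) for the 7 Schlafen genes (red) and the genes of 5 lists (grey); each point is 1 gene, spread sideways only for legibility, and the black line is the median of each list. Medians are -0.19 for interferon signalling, 0.15 for interferon-stimulated genes, 2.07 for maturing neutrophil genes, 0.25 for monocyte genes and -1.12 for T and NK cell genes.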

How the data were processed

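The authors deposited raw read counts per gene (whole numbers) in 1 table, per the file headers. The submitters' processing notes name TopHat2 2.1.1, Trimmomatic 0.32, bcl2fastq and build GRCm38; how reads were counted, with which annotation and strand setting, is not stated there. Of 12 labelled samples, 11 matched a column; double mutant number 4 was not analysed here, and 1 column that matches no label stayed out of every step. Of 31060 identifiers, 30875 matched GENCODE M21 without their version.

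Genes were tested in R 4.3.3 with edgeR 4.0.16 (filterByExpr, 15630 genes, TMM factors, 1 fit of 4 genotypes, glmQLFit with robust=TRUE, glmQLFTest, Benjamini-Hochberg adjusted p under 0.05), after a check on simulated data. The SE is the log2 difference over the square root of F. Log2 CPM used a prior count of 2. The settings changed were the scaling (RLE, upper quartile), the tool (DESeq2 1.42.0, voom of limma 3.58.1), other filters, a replicate block, only the groups compared, robust=FALSE, each library left out and number 3 left out.

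The members and gene lists were chosen with earlier results of these data known. Named genes were the members, other Slfn symbols, Tet2, the closest genes by Pearson r (5 for Slfn4, 3 for others) and up to 4 genes per list described, by mean CPM; Kit, Cd34, Gm11427 and Ifnb1 were added after their values were seen. Replicate numbers come from the labels. Deviations from the group mean of same-numbered double mutant, Tet2+/- and WT libraries correlated at 0.318 to 0.791, all over 0.1, which met the rule for pairing. Those of Ins2Akita/+ and WT (-0.351 and 0.0661) did not. Deviations within a group cancel out, and number 3 stood apart in each of the former groups. Numbers 1 and 2 would therefore correlate in this way without being paired, so the check cannot show pairing for them. The values reported come from the fit without the block unless the block is named. No 2 libraries of a group agreed within counting noise.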

Additional observations from a re-analysis of the deposited data

Results flagged for a closer look

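Slfn4 and Slfn1 were flagged because their group means differed in opposite directions with the Tet2+/- allele on the 2 backgrounds. Slfn2 did so too, at 1.66 times the Ins2Akita/+ mean in the double mutant and 0.804 times the WT mean in Tet2+/-. Slfn3 had the reverse directions, at 0.963 and 1.02 times. For Slfn4 the mean was 3.94 times as high in the double mutant as in Ins2Akita/+ (519.7 and 132 CPM), with every double mutant library above the Ins2Akita/+ mean, whereas it was 0.491 times as high in Tet2+/- as in WT (43.4 and 88.5 CPM), with every Tet2+/- library below the WT mean. For Slfn1 the ratio of double mutant to Ins2Akita/+ was 2.51 (58.4 and 23.3 CPM) and that of Tet2+/- to WT 0.687 (12.5 and 18.1 CPM). The Tet2+/- and WT libraries overlapped for both genes. For Slfn4 the number 3 pair had the opposite sign, at a log2 difference of 0.31. EdgeR called neither gene for Tet2+/- over WT. The share of all genes with such opposite directions was not counted. The difference between the 2 effects was not tested as a finding, because the double mutant levels chose the family. Fitted as an interaction it was 3.0 (SE 0.80) for Slfn4 and 1.87 (SE 0.77) for Slfn1 on the log2 scale. EdgeR called 0 of 7 members for it, where 0% of genes were called. At an unadjusted p under 0.05 there were 2 members and 3.44% of genes. Limma voom called 0 members and 0 genes in all, and DESeq2 called 1 member, Slfn4, among 60 genes.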

How the results depend on the processing

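For the double mutant over each of the 3 other genotypes, Slfn4, Slfn1 and Slfn2 kept their sign in 21 of 21 alternatives, with Slfn4 between 2.14 and 2.95 over WT. Over WT, Slfn8 and Slfn9 also kept theirs in 21 of 21, Slfn5 in 20 of 20 and Slfn3 in 14 of 21. The alternatives reuse the libraries whose levels chose the family, so the kept signs are a description. For Ins2Akita/+ over WT, Slfn4, Slfn1 and Slfn2 kept their sign in 20, 18 and 19 of 21. The count of members called moved as follows. For the double mutant over WT, 0 became 1 with DESeq2 and 1 with the replicate block. Over Tet2+/-, 1 became 2 with DESeq2 (Slfn1 and Slfn4), 3 with the replicate block, 3 without all libraries numbered 3, 0 at a mean of at least 5 CPM, 0 with only the groups compared, and 0 to 1 when 1 library was left out. Over Ins2Akita/+, 0 became 1 without all libraries numbered 3, and for the interaction 0 became 1 with DESeq2. The cause was not tested. Calls over all genes moved too: for the double mutant over WT 7 were called, against 408 with DESeq2, 255 with the replicate block and 519 without libraries numbered 3. Over Tet2+/- 41 were called, against 538 with DESeq2, 703 with the block and 1163 without libraries numbered 3. A mean of at least 5 CPM gave 8 there, and only the groups compared gave 0. Leaving out 1 double mutant, Tet2+/- or WT library gave 0 to 66. Over Ins2Akita/+ 6 became 436 without libraries numbered 3, and for the interaction 0 became 60 with DESeq2. Beyond the double mutant over WT and over Tet2+/-, the block changed no call of a member. Tet2+/- and Ins2Akita/+ against WT called 0 members in every alternative. Depth was lowest for Slfn5, with 25 to 99 counts per library.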
